A study of Rattus norvegicus with 12 samples.

Results

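Jhy and other genes of the cilium were followed in the cortex of young and aged rats. The set was chosen by gene symbol and holds 75 genes: Jhy, the cilium transcription factors Foxj1 and Rfx1 to Rfx4, and genes of dynein 2, intraflagellar transport, the BBSome, the transition zone, the polycystins, the axonemal dynein arms, the radial spokes, the tektins and the CFAP (cilia and flagella associated protein) family. They are 75 of 14218 genes that a probe set with 1 symbol represents on the array. Jhy heads the set because it was selected on its age difference in these same arrays, so its values are a description and carry no p-value. For every other member, matching was by symbol, and the mean signal decided which probe set stood for the gene.

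Cortical RNA of 12 male Fischer 344 rats, of which 6 were young and 6 aged, was hybridized rat by rat to Affymetrix RAE230 2.0 arrays. By their labels the young rats were 3 to 5 months and the aged rats 21 to 23 months old. The titles name parietal cortex and the tissue field names frontal cortex. The cortical markers Neurod6, Tbr1, Fezf2 and Cux2 passed the cutoff. So did every striatal, hippocampal and thalamic marker with a probe set, so that passing it does not identify the region. All rats had an electrode and telemetry implant and were trained in a water maze before the tissue was taken, so the young rats are controls for age only. Values are signal intensities on a linear scale, set so that the trimmed mean of an array is 500.1, and differences are aged minus young on the log2 scale (limma, all 12 arrays). Each array correlated with the other 11 at a mean r of 0.958 to 0.967 over the genes tested, lowest for aged rats 2 (0.958) and 6 (0.962), and the median signal of aged rat 6 (194.3) lay above that of every other array (161.6 to 177.2).

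A cilium is a microtubule rod, the axoneme, that grows from a centriole at the cell surface. Intraflagellar transport particles carry its parts along the rod, kinesin 2 outwards and dynein 2 back, while the BBSome moves membrane proteins and the transition zone at the base controls entry. Neurons and astrocytes each carry a short primary cilium without motor arms, which serves signalling, whereas the ependymal cells that line the ventricles carry tufts of motile cilia that stir the cerebrospinal fluid. Jhy is known from mutant mice with juvenile hydrocephalus, in which the ependymal cilia are abnormal. Foxj1 drives the program of motile cilia, and Rfx factors act on cilium genes through the X-box, a DNA element made of a pair of inverted arms.

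The promoters of the members are shown because the Rfx factors are themselves members and their DNA element can be read in the sequence. RefSeq promoter windows (build GRCr8, 250 bases before to 50 after a gene's start) were found for 63 of the 75 members. The X-box arm GTTGCC, searched on both strands as GTTGCC or GGCAAC, stood in a window of 25 of these 63 members (39.7%), against 13.1% of 27457 genes and 12.2% of all 33469 windows. It was present in 10 of 20 tektin and CFAP genes, 3 of 7 BBSome genes, 3 of 4 transition zone genes and 3 of 4 transcription factors. It stood in 4 of 11 intraflagellar transport genes, 1 of 3 dynein 2 genes and 1 of 7 axonemal dynein genes. None was found in 4 radial spoke and central pair genes and 2 polycystin genes. The forkhead motif GTAAACA, searched on both strands as GTAAACA or TGTTTAC, stood in 4 of 63 members (6.35%), against 4.13% of all genes and 3.78% of all windows. A match is a description of these letters and not a binding site. Of the 25, the 8 that are transcription factors, have the smallest p or the highest signal of their role, or are among the 3 members most like Jhy are given with 12 bases on each side, read 5′ to 3′ on the strand that carries the arm, which is in capitals.
Rfx1: tgggtagcaacaGTTGCCccggtgagggaa
Rfx2: agcctggtaaccGTTGCCgggcgcaacgcc
Rfx3: gttatagcaaccGTTGCCttgtgaatcaag
Bbs2: cttggcaggccgGTTGCCtagcagcggata
Dync2li1: gcaggctccttgGTTGCCatggcagcgacg
Cep164: ggacgccggggtGTTGCCctgcagccacca
Tekt2: ctgctcgccttcGTTGCCcaggtctgagaa
Tekt4: gcaaggctcctgGTTGCCtcaggaacattg
In GRCr8 these stretches lie at Rfx1 chr19:40996820-40996849 (minus), Rfx2 chr9:1758270-1758299 (minus), Rfx3 chr1:235122523-235122552 (minus), Bbs2 chr19:10915578-10915607 (minus), Dync2li1 chr6:15778163-15778192 (plus), Cep164 chr8:55031165-55031194 (plus), Tekt2 chr5:143907697-143907726 (plus), Tekt4 chr10:14992267-14992296 (minus), with the strand in parentheses.

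Jhy has 3 start sites in RefSeq, and neither motif was found in any of its windows. The windows of 300 bases lie on the minus strand of GRCr8, the outer at chr8:50230380-50230679, the middle at chr8:50229963-50230262 and the inner at chr8:50229764-50230063. The GC content rises from 50% with 5 CpG dinucleotides in the outer window to 64.7% with 24 in the middle and 79% with 40 in the inner one. The outer and middle windows, which do not overlap, are given on the gene's strand in lower case, with no part in capitals, and the inner one, which overlaps the middle one, is not printed.
Jhy outer start: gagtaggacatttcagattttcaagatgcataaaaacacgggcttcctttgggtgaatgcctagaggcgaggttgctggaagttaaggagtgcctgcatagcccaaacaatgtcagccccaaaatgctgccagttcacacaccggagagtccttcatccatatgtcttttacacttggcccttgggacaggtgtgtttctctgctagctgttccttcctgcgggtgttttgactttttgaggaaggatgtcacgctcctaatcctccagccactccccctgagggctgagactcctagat
Jhy middle start: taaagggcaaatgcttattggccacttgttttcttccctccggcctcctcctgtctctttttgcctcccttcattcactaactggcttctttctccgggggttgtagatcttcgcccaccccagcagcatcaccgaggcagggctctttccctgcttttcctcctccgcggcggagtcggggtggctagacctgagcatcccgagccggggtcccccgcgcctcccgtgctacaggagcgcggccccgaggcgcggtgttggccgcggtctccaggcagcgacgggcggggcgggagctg
The array holds 1 probe set for Jhy, and which of the starts gave rise to its signal cannot be read from it.

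Of the 75 members, 68 had a signal above the cutoff of 19.7 (4.3 on the log2 scale) on at least 3 arrays and were tested among 13253 genes. On all 12 arrays 55 passed. The paper set 4.3 on its gcRMA values, and whether it parts signal from noise in the deposited values was not tested. The 7 members below the cutoff were Ak7, Cfap100, Dnah7, Rsph6a, Spag16, Tekt3 and Tekt5, all of them genes of the motile axoneme, and no age difference was computed for them. Their highest signal in any rat was 34.7 (Tekt5, an aged rat). Dnah7, just outside, was above the cutoff on 2 arrays, with signals of 2.54 to 24.9 in the young and 3.35 to 26.5 in the aged rats. Dnah2, just inside, was above it on 3 arrays, with 4.01 to 24 in the young and 2.26 to 39.7 in the aged.

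Jhy signal was higher in every aged rat than in any young rat. The young rats 1 to 6 read 38, 60.2, 74.3, 40.9, 48 and 70, a mean of 55.2 ± 15.2 (SD, n = 6). The aged rats 1 to 6 read 132, 109, 116, 114, 111 and 150, a mean of 122 ± 16 (SD, n = 6). The groups did not overlap, and the gap between the highest young rat (74.3) and the lowest aged rat (109) was wider than the SD of either group. The log2 difference was 1.18 (SE 0.17), a signal 2.27 times as high in the aged group. It was 1.09 among the rats of the lower series of sample codes (3 young, 4 aged) and 1.33 among those of the higher series (3 young, 2 aged). Without aged rats 2 and 6 it was 1.15.

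**Figure D1:**
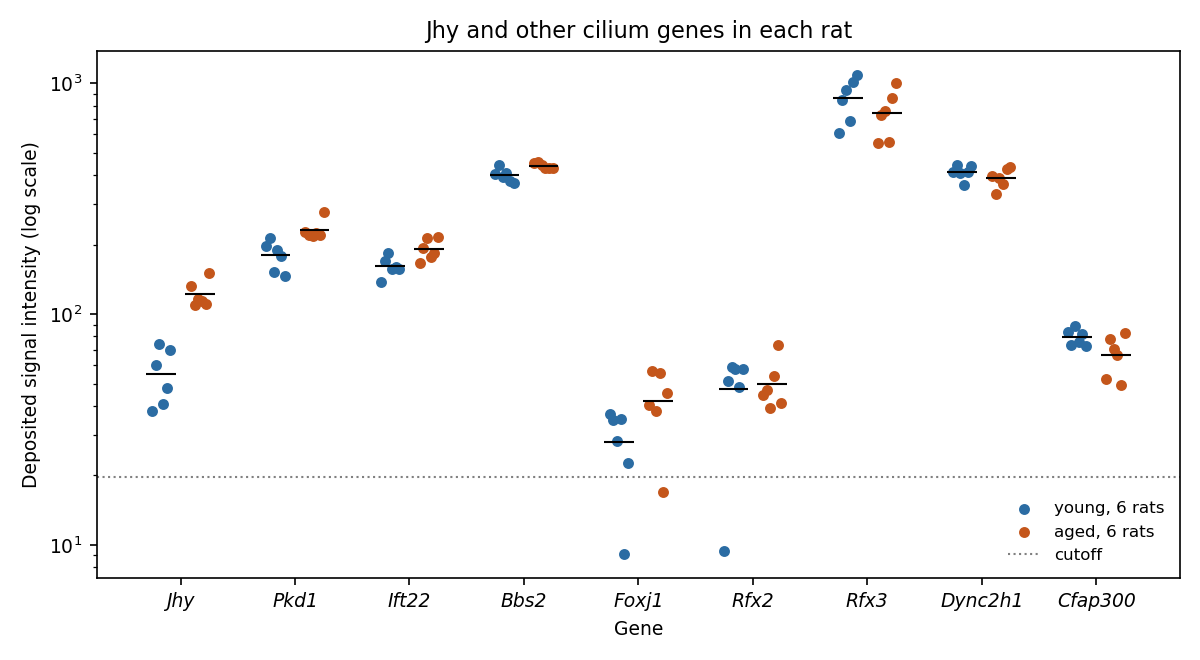
Deposited signal intensity (log scale) of Jhy and 8 other cilium genes in each of 6 young and 6 aged rats. Each point is 1 rat, horizontal bars are group means, and the dotted line is the cutoff of 19.7. Jhy (young 38 to 74.3, aged 109 to 150) and Pkd1 (146 to 213, 218 to 276) are the plotted genes whose age groups do not overlap.

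Tissue is a mixture of cells, and in such RNA fewer cells of a type and less RNA per cell cannot be told apart. Markers of the ependymal cells, which carry motile cilia, and of the choroid plexus are therefore given beside Jhy. The summed signal of the 8 ependymal markers tested of 13 ran from 2611 to 3426 in the young and from 2707 to 3522 in the aged rats. Their median log2 difference was 0.022 (-0.00095 after quantile normalization and -0.048 after median centring of the arrays), 4 were higher and 4 lower, and none reached an unadjusted p of 0.05. Tmem212, a marker of ependymal cells, read 29.9 to 73.5 in the young (median 56.9) and 38.1 to 148 in the aged (median 59.1), a log2 difference of 0.37. The differences of the others were 0.31 for Vim, 0.29 for Dynlrb2, 0.046 for Mia, -0.0015 for Rarres2, -0.0024 for Cd24, -0.042 for Zmynd10 and -0.053 for Tppp3. Most of the sum came from Cd24, at 1269 to 1703 in the young and 1425 to 1549 in the aged, and Vim, at 454 to 968 and 504 to 970, which other brain cells express too. Of the other ependymal markers, Mlf1 and Cdhr4 lay below the cutoff. The summed signal of the 17 choroid plexus markers tested of 20 was 2442 to 4557 in the young and 2524 to 3753 in the aged rats. Their median log2 difference was 0.14 (11 higher, 6 lower). It was -0.0087 after quantile normalization of the arrays and 0.07 after centring each on its median. Ttr, the carrier protein that marks choroid plexus, read 89.3 to 1417 in the young (median 137) and 77.8 to 629 in the aged (median 167). The largest part of the choroid plexus sum in each rat was Enpp2, at 1127 to 1972 in the young and 1128 to 2572 in the aged. This sum therefore rests largely on 1 gene. The age groups overlapped on both sums, and the part of these cells in the Jhy result was not tested.

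Among other cell types, the log2 difference was positive for all 9 oligodendrocyte and myelin markers tested (median 0.24, 8 of 9 after median centring). It was positive for 10 of 11 microglial markers (0.29) and all 5 blood markers (0.50), counts that held under both scalings. Over all genes 56.9% were positive. At an unadjusted p of up to 0.05 (limma), 0 of the 9, 2 of the 11 and 2 of the 5 were higher, against 6.49% of all genes. None of these markers had an adjusted p under 0.05. The median was 0.17 for endothelium and mural cells, -0.071 for neurons, 0.041 for astrocytes (-0.029 after median centring) and 0.01 for meninges (-0.066 and -0.06 under the scalings). Among brain regions it was -0.034 for cortex, 0.12 for striatum, 0.13 for hippocampus and 0.012 for thalamus (-0.0028 and -0.059 under the scalings). The summed microglial signal was 4726 to 6441 in the young rats and peaked at 10587 in aged rat 6, in which Jhy also had its highest signal (150). Aged rat 6 also had the highest sums of ependymal, astrocyte, and endothelial and mural markers, and the highest median signal of all arrays (194.3). The other cell type and region lists peaked in other rats. The part of any of these cell types in the Jhy result was not tested.

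For the members other than Jhy, no age difference passed adjustment over all genes. With limma and Benjamini-Hochberg adjustment, 0 of 67 members had an adjusted p under 0.05 in either direction, where 0.0453% of all genes were called higher and 0.00755% lower in the aged rats. The methods' t-test, run on the same values, called 2 members higher, Pkd1 and Bbs2, and 0 lower at the unadjusted threshold of the methods (0.01), against 1.68% and 0.77% of all genes, and 0 members after Benjamini-Hochberg adjustment, against 0.0528%. The paper itself lists Dync2h1 as lower with age at that threshold, so the 0 lower calls hold for this rerun and not for the paper. The paper worked on gcRMA values and a narrower list of genes, and whether this accounts for the difference was not tested. With limma at an unadjusted p of up to 0.05, 3 of 67 members (4.48%) were called higher, against 6.49% of all genes. They were Pkd1, Ift22 and Bbs2. Lower calls numbered 0, against 2.62% of all genes. Counts of so few members do not set these shares apart from those of all genes. Complete separation of the ages with the aged rats on top was seen in 1 member (1.49%), Pkd1, against 0.536% of all genes, and with the aged rats at the bottom in 0 members, against 0.241%.

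The differences of the members centred near those of all genes. Of the 67, 40 (59.7%) had a positive and 27 a negative difference with a median of 0.033, next to 56.9% positive and a median of 0.024 over all 13253 genes. The split followed the scaling of the arrays: after quantile normalization 33 members (49.3%) were positive with a median of -0.00046, and after centring each array on its median 26 (38.8%) with a median of -0.038, while all genes moved to 50.8% and 37.8%. The 95% confidence interval lay within 0.5 log2 units of 0 for 44 of the 67 members and within 1 unit for 55, so that a difference as large as that of Jhy lay outside the interval for most of them. The 12 members with wider intervals each lay below the cutoff on at least 1 array.

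**Figure D2:**
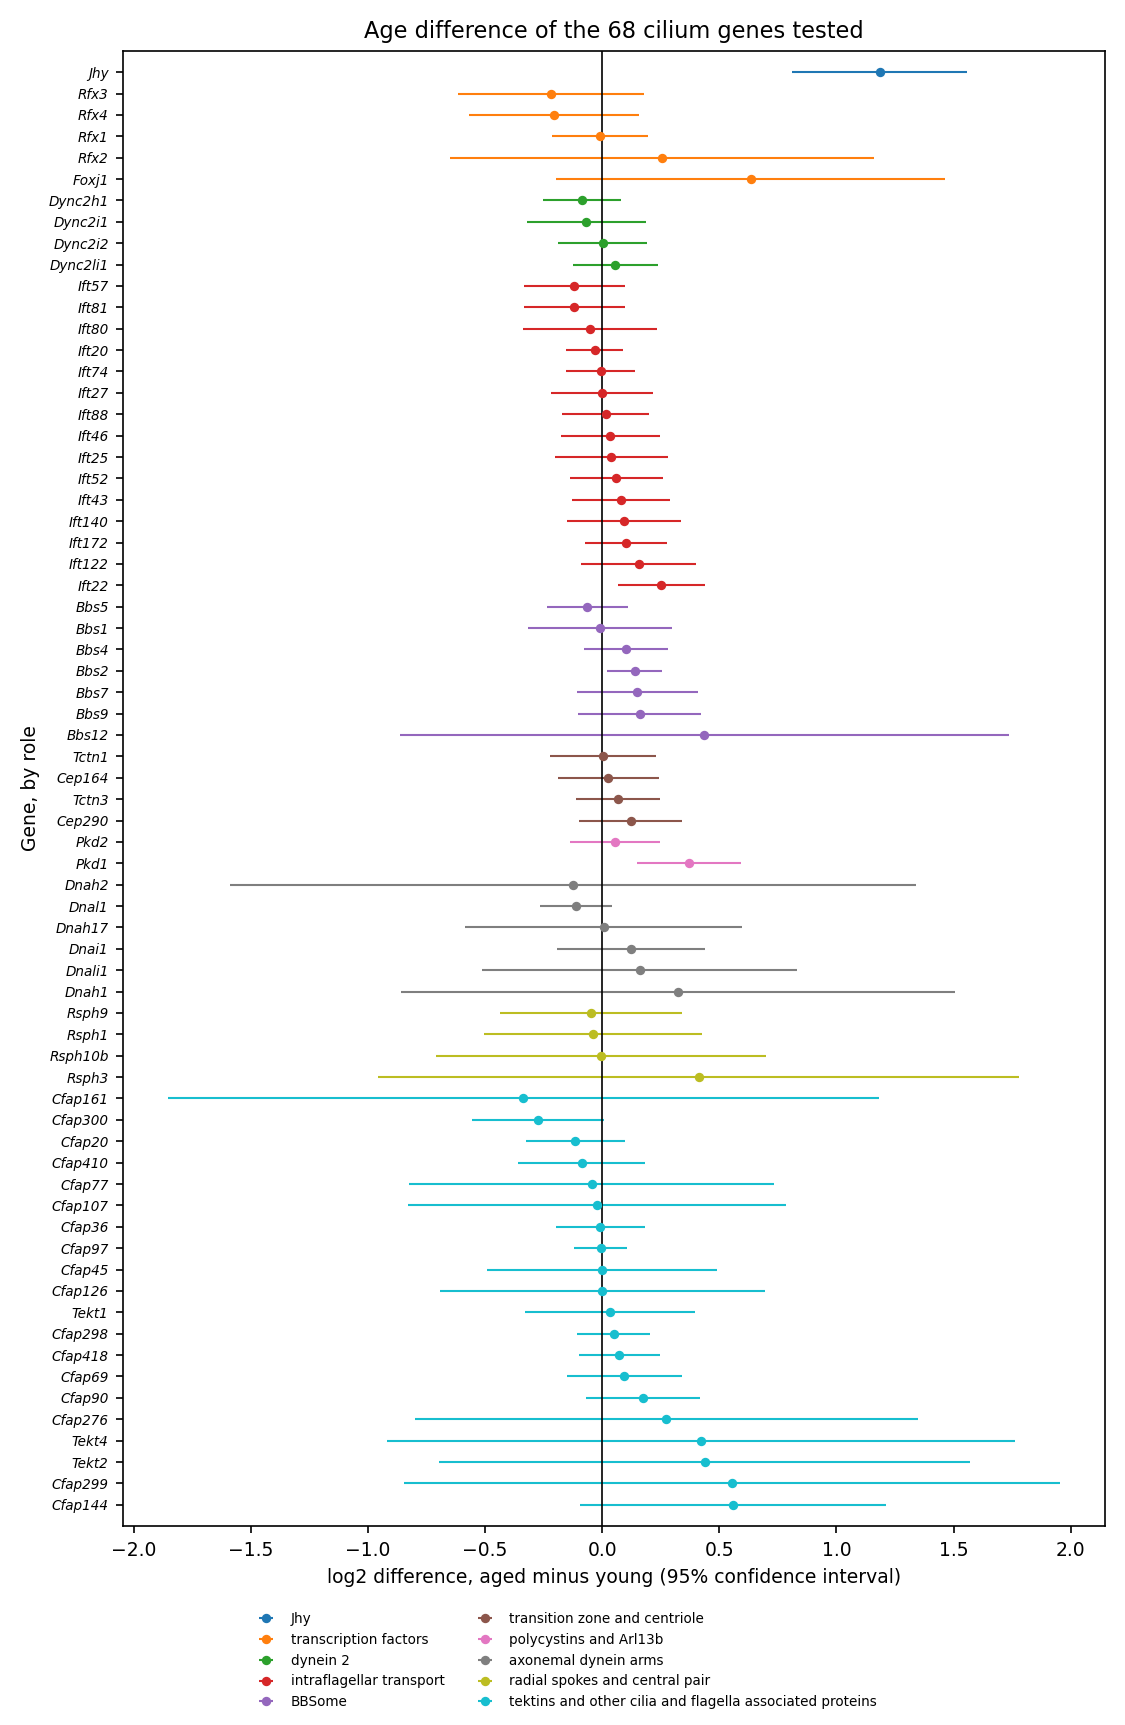
Log2 difference (aged minus young, 6 rats each) of the 68 cilium genes tested, grouped and coloured by role. Points are limma estimates and bars are 95% confidence intervals. Jhy stands at 1.18, but it was selected on its age difference in these arrays, so its bar is a description and not a test. The other estimates run from -0.34 (Cfap161) to 0.64 (Foxj1) and most of their intervals cross 0.

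The transcription factors switch on the cilium genes, and none of the 5 passed the test. Foxj1 read 9.14 to 37 in the young rats (median 31.5) and 16.9 to 56.9 in the aged rats (median 42.8). In 5 of 6 aged rats it lay above the highest young rat, and rat 5 of each age had the lowest value of its group, below the cutoff in both. Its log2 difference of 0.64 (SE 0.38) did not pass the test (limma, adjusted p = 0.652), and its 95% interval ran from -0.20 to 1.47. Leaving out young rat 5 gave 0.34, and leaving out aged rat 5 gave 0.88.

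The Rfx factors gave small differences of mixed sign. Rfx3, which is needed for cilia in several tissues, read 610 to 1088 in the young (median 888) and 550 to 1001 in the aged rats (median 742), a log2 difference of -0.22 (limma, adjusted p = 0.759). Rfx4, a factor of the developing brain, stood at -0.20 (adjusted p = 0.747) with 417 to 652 in the young and 338 to 718 in the aged rats. Rfx1 was at -0.0091 (SE 0.095). Rfx2 had a log2 difference of 0.25 (SE 0.41), but 1 young rat (9.42) lay far below the other 5 (48.4 to 59.2), and without that rat the difference was -0.17. Age groups overlapped for all of these factors, and under both scalings 2 of the 5 transcription factors were positive and 3 negative.

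The intraflagellar transport genes chosen by their Ift symbol had small differences with narrow intervals. Further genes of this transport, which the choice by symbol does not reach, are given below. All 15 genes with an Ift symbol had an interval within 0.5 log2 units of 0. Their estimates ran from -0.12 (Ift57) to 0.25 (Ift22) with a median of 0.036. Of the 15, 9 were positive, which became 8 after quantile normalization and 5 after median centring. Ift22, a small GTPase-like subunit, read 138 to 184 in the young (median 159) and 167 to 215 in the aged rats (median 189). Every aged rat lay above the young median and 3 lay above the highest young rat, and the groups overlapped. Its log2 difference was 0.25 (SE 0.085) with a limma adjusted p of 0.405, and another probe set of the gene gave 0.17 (SE 0.12). Ift52, a core subunit of the IFT-B complex, read 629 to 791 in the young and 645 to 948 in the aged rats, with a log2 difference of 0.061 (adjusted p = 0.892) that was -0.01 after median centring.

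Dynein 2, the motor of the return transport, is represented by 4 genes. Its heavy chain Dync2h1 read 363 to 443 in the young (median 411) and 331 to 433 in the aged rats (median 392), a log2 difference of -0.086 (SE 0.076, limma, adjusted p = 0.775) with a 95% interval of -0.25 to 0.08. After median centring it was -0.16 and passed the unadjusted threshold (limma, adjusted p = 0.469). The paper lists this heavy chain among its genes downregulated with age, the same sign as here. Its light intermediate chain Dync2li1 gave 0.057 (-0.014 after median centring), and the intermediate chains Dync2i1 and Dync2i2 gave -0.067 and 0.0023. The age groups overlapped for all of them.

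The BBSome carries receptors into and out of the cilium, and its genes are those of Bardet-Biedl syndrome. This role was assigned by Bbs symbol and includes the chaperone-like Bbs12. Of the 7 genes, 5 were positive (Bbs12 among them) and 2 negative, a split that neither scaling changed. The median of 0.14 was 0.10 after quantile normalization and 0.069 after median centring. Bbs2 read 368 to 444 in the young (median 398) and 427 to 455 in the aged rats (median 436). All aged rats exceeded the young median, but the highest young rat (444) lay within the aged range, and the spread in the aged group was small (SD 11.7 against 27.1). The log2 difference was 0.14 (SE 0.054, limma, adjusted p = 0.48). It was 0.12 after quantile normalization and 0.069 after median centring, and passed the unadjusted threshold under neither. Bbs4 read 613 to 792 in the young and 667 to 825 in the aged rats, with 0.10 (adjusted p = 0.741). Bbs12, a chaperone-like gene whose signal ran from 5.06 to 54.8, gave 0.44 with an interval of -0.86 to 1.74, and 0.049 without young rat 6.

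The transition zone and centriole genes Tctn1, Tctn3, Cep290 and Cep164 had differences of 0.0035 to 0.12, all positive as deposited, but 3 of the 4 were negative under quantile normalization and under median centring. Cep290, a gate protein of the transition zone, read 182 to 235 in the young and 202 to 292 in the aged rats, and its difference of 0.12 (SE 0.10, limma, adjusted p = 0.752) was -0.0052 without aged rats 2 and 6. Cep164, which anchors the centriole to the membrane, was at 0.026 (adjusted p = 0.967), and at -0.0093 and -0.045 under the scalings.

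The polycystins form a ciliary channel complex and are the genes of polycystic kidney disease. Pkd1, the receptor-like partner, read 198, 213, 152, 189, 178 and 146 in the young rats and 227, 220, 218, 224, 220 and 276 in the aged rats. The groups did not overlap, though only a narrow gap separated the highest young rat (213) from the lowest aged rat (218), and aged rat 6 stood above the rest. The log2 difference was 0.37 (SE 0.10, 95% interval 0.15 to 0.59), with a limma adjusted p of 0.295. It was 0.26, no longer past the unadjusted threshold, in the lower and 0.53 in the higher series of sample codes and 0.32 without aged rats 2 and 6. Pkd2, the channel partner, read 589 to 709 in the young and 567 to 796 in the aged rats, a difference of 0.054 (adjusted p = 0.9) that was -0.017 after median centring. A dimmer probe set of Pkd2 with median signals of 14.1 and 29.6 gave 1.58 (SE 0.63, fitted with limma over 28193 probe sets).

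The genes of the axonemal roles had differences close to 0 in the middle of the group. These roles were assigned by symbol and hold every CFAP gene of the set, also ones such as Cfap300 that are not parts of the axoneme itself. Of the 30 tested in the 3 axonemal roles, 16 were positive and 14 negative with a median of 0.0035, and 14 and 12 were positive under quantile normalization and median centring. None reached an unadjusted p of 0.05 as deposited. The 32 genes of assembly and trafficking had a median of 0.047 with 22 positive, a split of 17 and 12 under the scalings. The axonemal genes were measured less closely, with a median 95% interval of 0.54 log2 units on each side of the estimate against 0.21 for assembly and trafficking.

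Among the axonemal dynein arms, the motors of ciliary beating, 6 of 7 genes were tested. Dnal1, a light chain of the outer arm, read 1913 to 2273 in the young (median 2108) and 1796 to 2244 in the aged rats (median 1885), and 4 of 6 aged rats lay below the lowest young rat. Its log2 difference was -0.11 (SE 0.071, limma, adjusted p = 0.665), and its other probe sets gave -0.22 (SE 0.12) and -0.28 (SE 0.14). The intermediate chain Dnai1 read 70.8 to 127 in the young and 86.5 to 119 in the aged rats, a difference of 0.12 (adjusted p = 0.851). The heavy chains Dnah1 and Dnah2 lay near the cutoff, with intervals of -0.86 to 1.51 and -1.59 to 1.34, both of which include the size of the Jhy difference.

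Radial spokes regulate the dynein arms. Their role here also holds Spag16, a gene of the central pair, and 4 of the 6 genes in the role were tested. Rsph9, a spoke head protein, read 337 to 590 in the young and 290 to 573 in the aged rats, with a log2 difference of -0.049 (SE 0.18, limma, adjusted p = 0.966). Rsph1 read 59.3 to 106 in the young and 53.1 to 120 in the aged rats (-0.04, adjusted p = 0.973). Rsph3 gave 0.41 (SE 0.63, adjusted p = 0.893) with signals of 5.69 to 68.6 in the young rats, a range that held all aged rats (18.5 to 43.8). With 1 rat left out its difference ran from 0.026 (without young rat 6) to 0.74 (without young rat 4).

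Tektins run along the microtubules of the axoneme, and many CFAP proteins line their inner wall. Of the 24 genes of this role, 20 were tested, 11 positive and 9 negative with a median of 0.017 (-0.0044 and -0.054 under the scalings). Cfap300, a factor that helps to assemble dynein arms, read 72.4 to 88.6 in the young (median 78.9) and 49.4 to 83.1 in the aged rats (median 68.5), and 4 of 6 aged rats lay below the lowest young rat. The log2 difference of -0.27 (SE 0.13) had a limma adjusted p of 0.556. It was -0.39 after quantile normalization (adjusted p = 0.443) and -0.34 after median centring (adjusted p = 0.438), so that Cfap300 was among the lower genes at an unadjusted p of 0.05 under both scalings.

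Cfap418 read 1648 to 2109 in the young and 1687 to 2247 in the aged rats, a difference of 0.073 (SE 0.079, adjusted p = 0.841). Tekt1, a tektin of cilia and sperm tails, read 75.1 to 149 in the young and 84.4 to 127 in the aged rats, with a log2 difference of 0.033. Tekt2 and Tekt4 gave 0.44 and 0.42 with signals between 2.78 and 43, mostly below the cutoff or close to it, and neither passed the test (limma, adjusted p = 0.854 and adjusted p = 0.887). The difference of Tekt2 was -0.076 in the lower series of sample codes, and that of Tekt4 was -0.11 without young rat 1. Across the role, the genes with the most positive estimates, Cfap144 (0.56) and Cfap299 (0.55), had intervals that included 0, and without young rat 6 Cfap299 stood at -0.021.

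Members whose promoter window held the X-box arm and those without it were described by age difference as well. As deposited, the 25 tested members with the arm had 14 positive and 11 negative differences with a median of 0.014, and the 32 without it had 23 and 9 with a median of 0.087. Neither group had a member with an adjusted p under 0.05. Over all genes 56.9% of the differences were positive. The split by the arm was not computed under the scalings, which changed the signs of many members.

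Several members had more than 1 probe set, which tests a difference on another stretch of the transcript. The 20 genes concerned had 24 further probe sets, of which 20 passed the cutoff. The sign matched that of the probe set used in 13 and was opposite in 7, and 1 (Pkd2) had an unadjusted p of up to 0.05. Jhy, Pkd1 and Bbs2 have no further probe set.

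Cilium genes that the choice by symbol does not reach were taken from 6 lists of 129 genes, of which 75 were tested, 9 lay below the cutoff and 45 had no probe set of that symbol. With limma 0 of 75 had an adjusted p under 0.05. At an unadjusted p of up to 0.05, 3 of the 75 were higher and 1 of the 75 lower, against 6.49% and 2.62% of all genes. Counts of so few genes do not set these shares apart from those of all genes. The median difference of the 75 was 0.016, with 40 positive and 35 negative. It was -0.012 with 33 positive after quantile normalization and -0.055 with 25 positive after median centring. Fbf1, a transition fibre protein of the basal body, read 123 to 171 in the young and 150 to 212 in the aged rats, a log2 difference of 0.33 (limma, adjusted p = 0.4). Sufu, an inhibitor of hedgehog signalling, read 40.4 to 77.2 in the young and 56.1 to 79.7 in the aged rats (0.39, limma, adjusted p = 0.486). Ropn1l, a radial spoke protein, gave 0.47 (limma, adjusted p = 0.534) and Arl6, the GTPase that recruits the BBSome, gave -0.13 (limma, adjusted p = 0.486). For all 4 the age groups overlapped.

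By list, the 9 genes of intraflagellar transport and its motors had a median of -0.041 with 1 positive, and the 15 of the BBSome and ciliary trafficking a median of 0.016 with 10 positive. The 19 of the transition zone and basal body had 0.051, the 7 of primary cilium receptors and hedgehog signalling -0.0033, the 19 of the motile axoneme and its assembly 0.055, and the 6 of the multiciliation program 0.041. After median centring the first of these lists stood at -0.11 with 1 positive, and the medians of all the others were negative too (-0.016 to -0.074). After quantile normalization the motile axoneme list stood at -0.06 and the multiciliation list at -0.053. Motile axoneme genes tested there had a summed signal of 8604 to 9467 in the young and 8045 to 9243 in the aged rats, which overlapped.

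The age difference selected Jhy, but the variation among rats of the same age did not, so that likeness to Jhy was measured on that variation. After the mean of each age group was removed, the Pearson correlation of each of 13252 genes with Jhy was computed over the 12 rats, with an exact two-sided permutation test that shuffled rats within age groups (518400 orders). No gene passed Benjamini-Hochberg adjustment over all genes, the smallest adjusted p being 0.833, and 730 genes (5.51%) had an unadjusted p of up to 0.05. The genes with the most similar pattern were Bcam (r = 0.88), Zpbp2 (0.87), Atp10a (0.87), Prorsd1 (0.87) and Dock6 (0.86), and those with the most opposed were Tshz3 (r = -0.94, exact permutation p = 8.31e-04, adjusted p = 0.833) and Dhrs7 (-0.88). Spearman's rho was 0.85 to 0.92 for the former and -0.90 and -0.86 for the latter, and without the 2 rats farthest from the median of Jhy, young rats 3 and 6, r was 0.72 to 0.81 and -0.85 and -0.79.

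Of the members, Tekt2, Rfx3 and Tekt4 were closest to Jhy, and Tekt2 and Tekt4 passed the cutoff on 5 and 8 arrays only. Tekt2 ranked at 244 of 13252 with r = 0.63 (rho 0.66, exact permutation p = 0.0275, adjusted p = 0.882) and 0.64 without the same 2 rats. Rfx3 followed with r = 0.58 (rho 0.46, exact permutation p = 0.0586, adjusted p = 0.882) and 0.47 without them, and Tekt4 with r = 0.55 (rho 0.52, exact permutation p = 0.147, adjusted p = 0.901), which was 0.26 without them. Of the 67 members, 38 had a positive r and the median was 0.063, against 0.03 over all genes. An unadjusted p of up to 0.05 was found in 5 of the 67, next to 5.51% of all genes, some of opposite sign, such as Ift20 (r = -0.65, exact permutation p = 0.00182, adjusted p = 0.856).

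**Figure D3:**
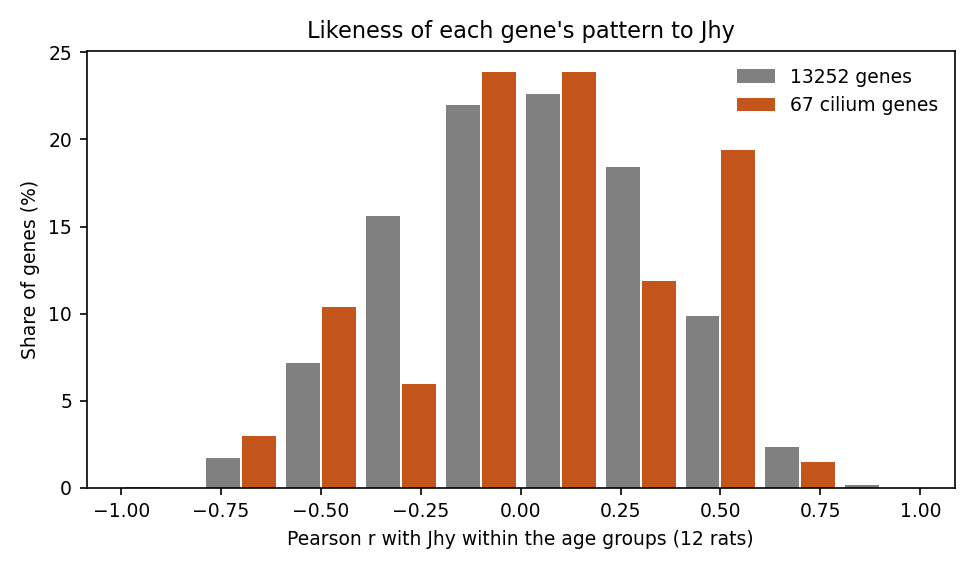
Distribution of the Pearson correlation with Jhy over 12 rats after the mean of each age group was removed. Bars give the share of genes in each bin of r, for all 13252 genes (the cilium genes included) and for the 67 cilium genes. The cilium genes centre on 0.063 and all genes on 0.03, and the highest bin holds 0.174% of all genes and none of the 67 cilium genes.

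How the axonemal genes varied together among rats of the same age is given as a description, since all pairs of genes share the same 12 arrays and their scaling. For the 30 axonemal genes tested, the median of 435 pairwise correlations was 0.14 and 13.8% of the pairs had r over 0.5, against a median of 0.0035 and 8.72% over all 87814378 pairs of genes tested. The axonemal roles differed, with a median of 0.12 for tektins and CFAP genes, 0.38 over 6 pairs for radial spokes, and -0.059 with 0 of 15 pairs over 0.5 for the axonemal dynein arms. For the 20 axonemal genes above the cutoff on all arrays the median was 0.20 with 17.9% over 0.5, against 0.0025 and 9.3% for all genes so filtered. For assembly and trafficking the median was -0.0026 with 8.06% over 0.5 in the 32 genes tested and -0.0017 with 7.96% in the 31 above the cutoff on all arrays, close to all genes. Young rat 3 and aged rat 2 had the highest mean deviation of those 20 axonemal genes in their groups (0.17 and 0.25 log2 units) and young rat 2 and aged rat 1 the lowest (-0.16 and -0.22). Aged rat 2 is also the rat whose array correlated least with the others, and its part in this covariation was not tested. Jhy did not follow this order: its signal in aged rat 2 (109) was the lowest and in aged rat 1 (132) the next to highest of the aged rats, while young rat 3 had the highest value of the young rats (74.3).

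**Figure D4:**
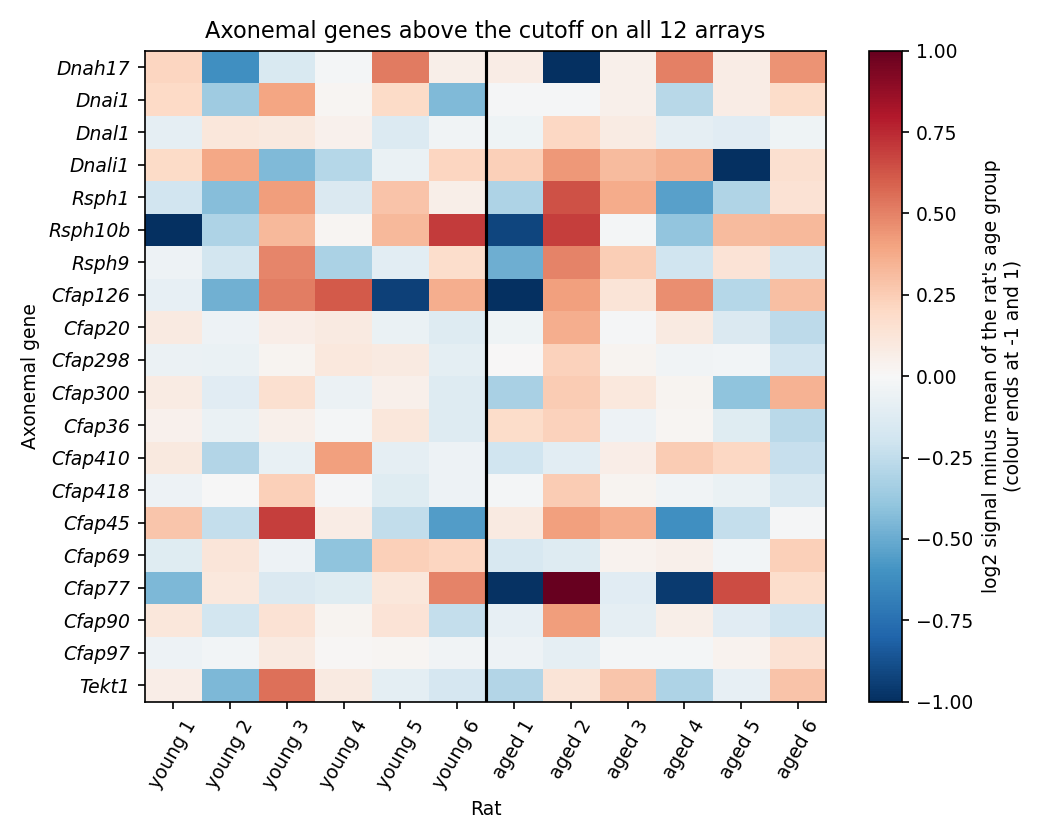
Deviation of the log2 signal from the mean of the rat's age group for the 20 axonemal genes above the cutoff on all 12 arrays (rows) in each rat (columns, young left of the black line). Colours run from blue (below) to red (above) and end at -1 and 1. Young rat 3 and aged rat 2 are mostly red, and young rat 2 and aged rat 1 mostly blue.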

How the data were processed

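Total RNA of each rat was hybridized to 1 Affymetrix RAE230 2.0 array of 31099 probe sets. For every rat the authors deposited linear signal intensities, without pooling of replicates. MAS5, GCRMA and R 2.7.1 stand in the processing notes of the submitters, and the methods of the study name gcRMA and scaling to a target intensity. In which order these were applied is not given in the sources used here. On each array the mean of the deposited values was 500.1 once 2% had been trimmed at each end. The test had been designed for log2 gcRMA values, so the log2 of the deposited intensities was taken without further normalization. Background correction of dim probe sets, which decides how values near the cutoff vary, cannot be redone from these values.

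Symbols came from the platform annotation, updated by gene ID (20764 probe sets matched). Of the probe sets, 20832 have 1 symbol, 436 several and 9831 none, and the latter kinds were left out (3 probe sets of members carry several). The probe set of highest mean log2 signal stood for a gene, and genes above 4.3 on the log2 scale, a signal of 19.7, on at least 3 arrays were tested. Aged and young rats were compared in R 4.3.3 by two-sided tests of limma 3.58.1 (lmFit, eBayes), and p-values were adjusted over all 13253 genes by Benjamini-Hochberg. The steps were tested on simulated data. Array number, 6 per group, limits the precision. Other steps used Python 3.11.15, numpy 2.4.6, pandas 2.3.3 and matplotlib 3.10.9.

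The members, the marker and cilium lists and the tests were chosen with earlier results of these data known. Named are Jhy, the transcription factors, members with an unadjusted p of up to 0.05, the member of smallest p and of highest mean signal in each role, the genes and the 3 members most like Jhy, and other cilium genes with an unadjusted p of up to 0.05. Further genes were named after their values were seen. The alternatives tried were median centring, quantile normalization, a cutoff of 5.5 or none, the mean of probe sets, every probe set on its own, array weights, an intensity trend with robust variances, the methods' t-test, subject number and sample code series as blocks, each series alone, each rat left out, and, chosen after seeing the data, aged rats 2 and 6 left out together.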

Additional observations from a re-analysis of the deposited data

Results flagged for a closer look

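Of 46 sets of 6 rats (23 named members in each age group), 6 held a rat whose gap to its nearest neighbour, on the log2 scale, took up more than 0.625 of the range of the group, where chance gives about 1 in 20. Foxj1 read 9.14 in young rat 5 against 22.6 to 37 in the other young rats, and 16.9 in aged rat 5 against 38.1 to 56.9 in the other aged rats. Rfx2 read 9.42 in young rat 1 against 48.4 to 59.2. Pkd1 read 276 in aged rat 6 against 218 to 227. Ift52 read 629 in young rat 6 against 730 to 791. Cfap418 read 2109 in young rat 3 against 1648 to 1790.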

How the results depend on the processing

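The log2 difference of Jhy ran from 1.07 to 1.33 over 26 alternatives and from 1.09 to 1.28 with 1 rat left out. The number of members with an adjusted p under 0.05 (limma) was 0 under all alternatives, the smallest adjusted p of any member being 0.208. Of the 3 members called higher at an unadjusted p of up to 0.05, Pkd1 stayed under it in 25 of 26 alternatives, Ift22 in 24 and Bbs2 in 18. The count of higher members was 1 in the lower code series alone (Foxj1, with none of these 3) and 4 in the higher series (Cfap107, Cfap161, Ift22 and Pkd1). With 1 rat left out it ran from 2 to 5, with 5 without young rat 3 (Cfap144 and Ift122 added) or aged rat 5 (Foxj1 and Dnali1 added). The count of lower members, 0 as reported, was 1 with quantile normalization, array weights and without aged rats 2 and 6 together (Cfap300 each), 1 with the mean of probe sets (Dnal1), 1 in the lower code series alone (Ift81) and 2 with median centring (Cfap300 and Dync2h1). With 1 rat left out it ran from 0 to 3, with 3 without aged rat 2 (Cfap20, Cfap300, Dnal1) and 2 without aged rat 6 (Cfap300, Rfx4). The cause was not tested.

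Nothing in the labels says that rats of the same subject number share more than that number. Their deviations from the group means correlated at -0.04 to 0.16, not over 0.1 in every pair, and 4 of 6 numbers matched best with themselves, which is a hint from the data and not from the design. With the subject number as a block, 4 members were called higher (Foxj1 added, limma, adjusted p = 0.208) and 1 lower (Rfx3, limma, adjusted p = 0.265).

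Of 569 differences of the 22 named members other than Jhy under alternatives, 540 kept their sign and 29 did not. None had an adjusted p under 0.05, as in the reported values, while 11 lost and 15 gained an unadjusted p of up to 0.05. Small differences changed sign: Cep164 (-0.0093 with quantile normalization, -0.045 with median centring, -0.047 in the lower series), Dync2li1 (-0.014 with median centring, -0.01 without aged rats 2 and 6), Ift52 (-0.01 with median centring, -0.084 in the higher series), Pkd2 (-0.017 and, in the lower series, -0.059), Tekt2 (-0.076 in the lower series), Cep290 (-0.0052 without aged rats 2 and 6), Rfx1 (0.32 with the mean of probe sets, 0.026 with array weights, 0.002 in the higher series, 0.038 without aged rats 2 and 6), and in the higher series Rfx3 (0.03), Dync2h1 (0.089) and Rsph9 (0.0077). With 1 rat left out, the sign also changed for Rfx1 (-0.078 to 0.042), Rfx2 (-0.17, without young rat 1, to 0.36), Tekt4 (-0.11, without young rat 1, to 0.64), Rsph9 (-0.15 to 0.049), Ift52 (-0.00058 to 0.11) and Cep164 (-0.041, without aged rat 6, to 0.093). The cause was not tested.

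Values near the cutoff of 19.7 limit the axonemal genes, and 6 arrays per group limit all.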
